A study of Mus musculus with 18 samples.

Results

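The genes described here carry glucose into the cell, turn pyruvate into lactate and back, and carry lactate out: *Slc2a1*, *Slc2a3*, *Slc16a1*, *Slc16a3*, *Bsg*, *Ldha* and *Ldhb*. They were taken by gene symbol from the deposited table, 7 of its 55491 rows, and all 7 passed the filter on low counts. The data are 18 RNA-seq libraries, enriched for poly-A, from mouse tendon fibroblasts (TFs) that had crawled out of tail tendon into collagen gel, were grown on plastic and were then kept for 4 days in 20% or 1% O2. The 6 groups held 3 libraries each. Ctrl TFs were Cre-negative, with a genotype labelled wild-type. cKO TFs carried Hif1a fl/fl and ScxCre, a Cre recombinase under the Scleraxis promoter, which is active in tendon-lineage cells. The gesicle groups were Ctrl TFs given Cre gesicles, vesicles that deliver Cre protein, as a parallel way to knock Hif1a down in culture. The labels give these TFs as wild-type too, while the methods of the study describe its Ctrl mice as fl/fl for Hif1a without Cre, or fl/WT with ScxCre, and its Ctrl TFs as taken from Cre-negative mice. All mice were of a mixed C57BL6J/129S1 background, male and female, and 4 to 6 months old. Each arm (Ctrl, cKO and gesicle-treated Ctrl) was measured at both O2 levels, so that the questions were how these genes answered to low O2 and whether loss of HIF-1α, the oxygen-sensitive subunit of the HIF transcription factor, changed that answer.

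Glucose enters cells down its gradient through the SLC2 (GLUT) carriers, of which *Slc2a1* (GLUT1) is the widespread basal carrier and *Slc2a3* (GLUT3) a high-affinity carrier best known from neurons. Lactate dehydrogenase is a tetramer of LDHA and LDHB subunits: LDHA-rich enzyme is the form of glycolytic tissues and LDHB-rich enzyme that of lactate-using tissues such as heart. Lactate leaves with a proton through the SLC16 monocarboxylate transporters, of which *Slc16a3* (MCT4) is known for export from glycolytic cells and *Slc16a1* (MCT1) works in both directions, and *Bsg* (basigin, CD147) is the chaperone that both need to reach the membrane. Tendon is a sparsely vascularized tissue, and glycolytic genes are textbook targets of HIF.

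The stretches before the transcription starts are shown because 3 of these genes were called higher in 1% O2 and their paralogs were not. RefSeq promoters of GRCm38.p6 matched 5 of the 7 genes, and *Slc2a3* and *Bsg* had no entry. Starts here are those of RefSeq, and for *Ldha*, *Slc16a3* and *Slc2a1* they lie downstream of the annotated gene starts given later. The windows of *Ldha* and *Slc16a3* lie wholly inside the annotated gene spans. The 250 bases before each start were searched on both strands for ACGTG and GCGTG, the core letters of the hypoxia response element. The palindrome CACGTG counts once on each strand. Capitals mark the matches. The windows are chr4:119108495-119108730 (plus strand) for *Slc2a1*, chr7:46845554-46845803 (plus strand) for the first *Ldha* start, chr11:120948817-120949066 (plus strand) for *Slc16a3*, chr3:104638414-104638663 (plus strand) for *Slc16a1* and chr6:142507958-142508207 (minus strand) for *Ldhb*. For *Slc2a1*, 236 of the 250 bases are shown, without those nearest the start, since 34 bases of the window lie in an annotated exon. Distances are counted from the RefSeq start and not from the end of the printed stretch.
Slc2a1: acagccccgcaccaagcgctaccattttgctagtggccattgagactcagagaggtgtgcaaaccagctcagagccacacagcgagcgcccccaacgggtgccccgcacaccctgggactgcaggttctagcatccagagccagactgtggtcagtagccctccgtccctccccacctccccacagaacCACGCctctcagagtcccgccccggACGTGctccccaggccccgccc
Ldha: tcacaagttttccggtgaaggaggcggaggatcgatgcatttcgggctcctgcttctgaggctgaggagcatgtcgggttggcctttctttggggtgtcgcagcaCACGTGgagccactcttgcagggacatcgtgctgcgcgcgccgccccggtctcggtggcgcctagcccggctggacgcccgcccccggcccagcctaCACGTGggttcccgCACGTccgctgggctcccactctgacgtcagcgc
Slc16a3: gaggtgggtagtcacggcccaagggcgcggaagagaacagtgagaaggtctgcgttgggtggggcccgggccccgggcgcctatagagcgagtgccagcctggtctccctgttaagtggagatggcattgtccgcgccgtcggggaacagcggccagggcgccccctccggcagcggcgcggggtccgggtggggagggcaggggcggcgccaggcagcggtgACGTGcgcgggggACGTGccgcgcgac
Slc16a1: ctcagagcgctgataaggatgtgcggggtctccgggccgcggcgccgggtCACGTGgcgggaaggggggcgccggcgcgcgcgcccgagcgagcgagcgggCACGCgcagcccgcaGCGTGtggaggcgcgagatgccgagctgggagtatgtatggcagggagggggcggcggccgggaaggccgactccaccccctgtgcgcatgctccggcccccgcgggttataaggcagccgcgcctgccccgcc
Ldhb: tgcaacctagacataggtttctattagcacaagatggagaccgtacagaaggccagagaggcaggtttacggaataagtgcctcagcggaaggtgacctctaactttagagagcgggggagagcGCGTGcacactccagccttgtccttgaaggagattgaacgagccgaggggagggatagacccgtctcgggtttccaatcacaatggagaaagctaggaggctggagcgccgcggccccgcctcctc

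*Slc2a1* held 2 matches, 61 and 36 bases before the start, and *Slc16a3* held 2, both ACGTG, at 27 and 14 bases. Before the first of its RefSeq starts *Ldha* held 5 matches, which were 2 CACGTG palindromes and 1 further ACGTG on the opposite strand. It held 1 before the second RefSeq start. *Slc16a1* held 4 matches and *Ldhb* 1. Of all 32851 promoters searched, 38.6% held at least 1 match, 16.7% at least 2 and 6.58% at least 3. A match is a description of the letters, and the genes with matches include both genes that rose in 1% O2 and genes that did not. No binding data were used.

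Library totals ran from 6857558 counts (cKO in 1% O2, replicate 1) to 51806453, so that 3 counts, taken as the floor, stood for 0.0579 to 0.437 CPM (counts per 1000000 counts of the library). *Hif1a* itself was not lower in the libraries labelled cKO. Its log2 difference from Ctrl was 0.11 (SE 0.16) in 20% O2 and 0.08 (SE 0.16) in 1% O2, and in the gesicle libraries it was 0.06 and -0.13, none of them called. The study reported lower *Hif1a* by qPCR in TFs of mice lacking the gene, after a longer culture than that sequenced. A count over the whole gene does not show the floxed exon apart, so it does not check the labels. Reads assigned to the Cre row were present in 5 of the 6 cKO libraries, at 1 to 5 counts, and in none of the other 12. All 10 tendon fibroblast markers were detected in every group, with *Scx* at a mean of 10.2 to 15.6 CPM and *Tnmd* at 40.9 to 119 CPM. Keratinocyte markers summed to at most 0.625 CPM and erythroid markers to at most 0.0581 CPM in any library. The replicate number is part of the labels, which do not say whether replicates were separate mice, so p-values measure the spread between these samples. In these bulk libraries, fewer cells of a type and less RNA per cell cannot be told apart.

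**Figure D1:**
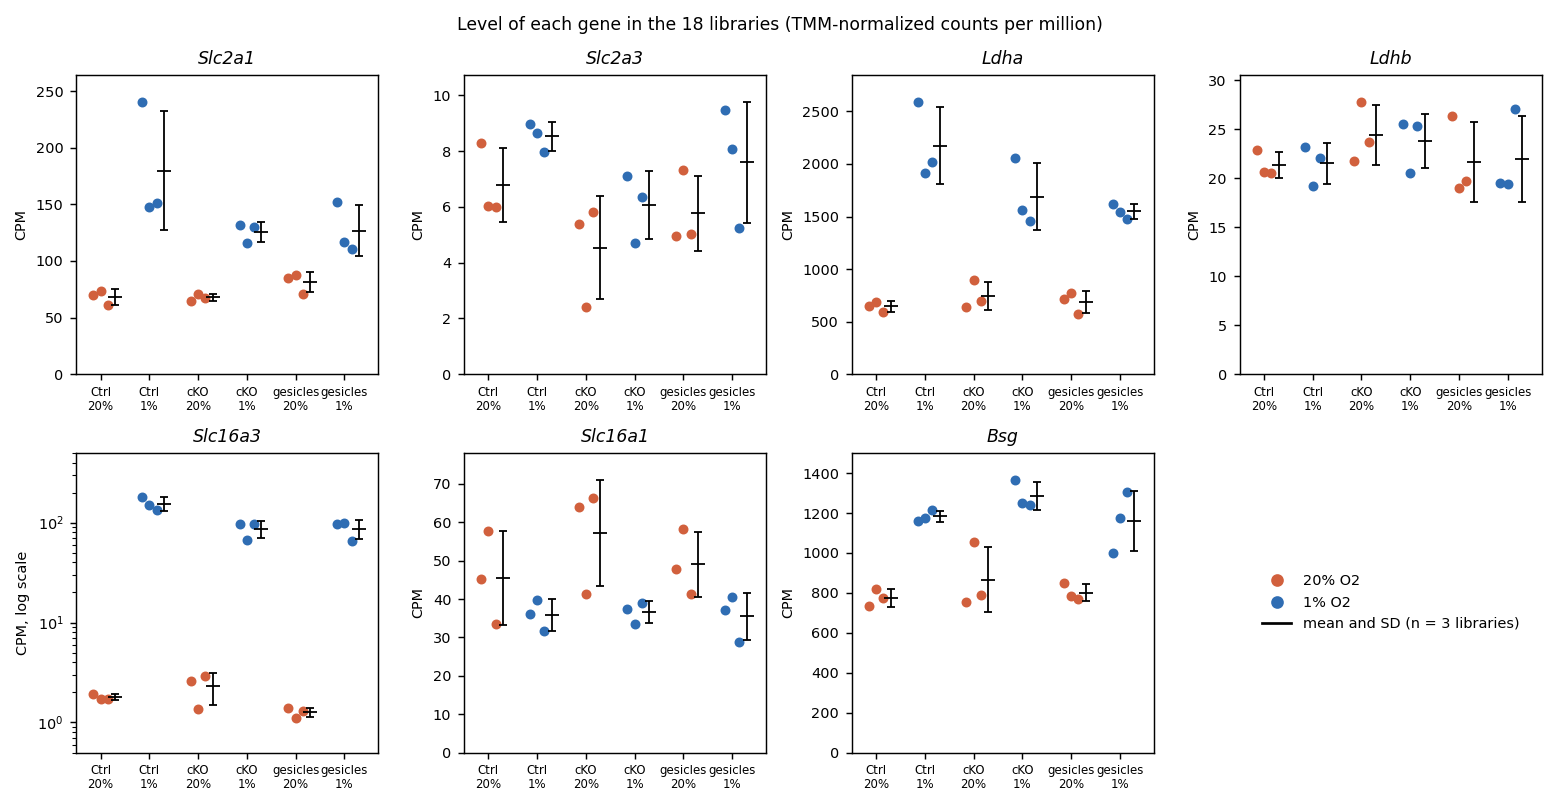
Level of each gene in all 18 libraries, in TMM-normalized CPM, with linear axes from 0 except for *Slc16a3*, whose axis is logarithmic. Points are single libraries, orange for 20% O2 and blue for 1% O2, and the black bars give the mean and SD of 3 libraries. *Slc2a1*, *Ldha* and *Slc16a3* separate the O2 levels in every arm and the other genes overlap when the arms are pooled.

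In Ctrl TFs, *Slc16a3*, *Ldha* and *Slc2a1* rose in 1% O2. *Bsg* was called too, but not with the replicate number as a block (edgeR adjusted p = 0.0560), nor with any one of the 6 Ctrl libraries left out. *Slc2a3*, *Slc16a1* and *Ldhb* did not pass the test. A gene was called at a Benjamini-Hochberg adjusted p under 0.05 over all genes tested and a fold change of at least 1.5, by edgeR's quasi-likelihood F test. By that rule 4 of the 7 genes were called in Ctrl TFs, where 1.88% of all 15850 genes tested were called in either direction. With the block 3 of the 7 were called, and 280 of the 15850 genes. In cKO TFs 3 of the 7 rose (*Slc16a3*, *Ldha* and *Slc2a1*) against 2.1% of all genes, and in gesicle-treated TFs 2 of the 7 (*Slc16a3* and *Ldha*) against 2.41% of 16174 genes. With the O2 difference averaged over the 3 arms, 3 of the 7 rose against 10.5%. Ctrl and gesicle libraries of the same replicate number deviated together at both O2 levels, and this average takes them as independent. The median log2 fold change of the 7 genes was 0.62, 0.57 and 0.53 in the Ctrl, cKO and gesicle arms, and over all genes tested it was 0.00, -0.03 and -0.02. The libraries of the 2 O2 levels did not overlap for 4, 5 and 5 of the 7 genes in these arms, where 29.7%, 20.5% and 24% of all genes did not.

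*Slc2a1*, the basal glucose carrier (ENSMUSG00000028645, GRCm38 chromosome 4 from 119108711 to 119137983, plus strand), stood at 70.4, 73.8 and 60.8 CPM in the Ctrl libraries in 20% O2 and at 241, 148 and 151 CPM in 1% O2. The cKO libraries had 65.0, 71.1 and 67.4 CPM in 20% O2 and 132, 116 and 130.2 CPM in 1% O2. The gesicle libraries had 85.2, 87.8 and 71.1 CPM in 20% O2 and 152, 117 and 110.5 CPM in 1% O2. All 9 libraries in 1% O2 were above all 9 in 20% O2, and the Ctrl library of replicate 1 in 1% O2 was the highest by a wide margin. In Ctrl TFs it rose by 1.40 on the log2 scale (SE 0.18, edgeR adjusted p = 0.00145), against 0.90 (SE 0.17, edgeR adjusted p = 0.0236) in cKO TFs and 0.64 (SE 0.17, edgeR adjusted p = 0.0577) in gesicle-treated TFs. The cKO call was lost on leaving out any one of 5 of its 6 libraries (all but replicate 2 in 20% O2), with adjusted p between 0.0545 and 0.0962. Ordered by mean, the level ran from Ctrl in 1% O2 (180 ± 52.7 CPM, SD, n = 3) through the gesicle and cKO groups in 1% O2 (127 ± 22.5 and 126 ± 8.82) to the 3 groups in 20% O2 (67.8 to 81.3), and the step from 1% to 20% O2 was the one place in this order where neighbours did not overlap.

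*Slc2a3*, the high-affinity carrier (ENSMUSG00000003153, chromosome 6 from 122727809 to 122801640, minus strand), was a low transcript, with 50 to 327 counts a library. The Ctrl libraries had 8.31, 6.02 and 5.99 CPM in 20% O2 and 8.97, 8.67 and 7.96 CPM in 1% O2. The cKO libraries had 5.38, 2.42 and 5.83 CPM in 20% O2 and 7.11, 4.72 and 6.35 CPM in 1% O2, and the gesicle libraries had 4.96, 7.31 and 5.03 CPM and then 9.49, 8.09 and 5.24 CPM. The O2 levels overlapped in all 3 arms, and the lowest value was that of the cKO library of replicate 2 in 20% O2. Each library in 1% O2 was above the one of the same arm and replicate number in 20% O2. The log2 fold changes were 0.34 (SE 0.29), 0.41 (SE 0.30) and 0.40 (SE 0.30) in the Ctrl, cKO and gesicle arms, with edgeR adjusted p from 0.469 to 0.625. With a replicate block nested in arm, the average over arms was 0.41 (SE 0.13, edgeR adjusted p = 0.0482), short of the fold minimum.

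*Ldha*, the subunit of glycolytic lactate dehydrogenase (ENSMUSG00000063229, chromosome 7 from 46841475 to 46855627, plus strand), stood at 648, 691 and 594 CPM in the Ctrl libraries in 20% O2 and at 2591, 1910 and 2015 CPM in 1% O2. The cKO libraries had 636, 896 and 696 CPM in 20% O2 and 2053, 1561 and 1454 CPM in 1% O2. The gesicle libraries had 713, 773 and 570.4 CPM in 20% O2 and 1621, 1545 and 1477 CPM in 1% O2. All 9 libraries in 1% O2 were again above all 9 in 20% O2. *Ldha* reads made up 0.0599% to 0.0705% of a Ctrl library in 20% O2 and 0.188% to 0.265% in 1% O2. The rise on the log2 scale was 1.76 (SE 0.19, edgeR adjusted p = 4.3e-04), 1.19 (SE 0.18, edgeR adjusted p = 0.00734) and 1.18 (SE 0.17, edgeR adjusted p = 0.00115) in the Ctrl, cKO and gesicle arms, and it was called in each arm under every alternative tried, single libraries left out included. Rows for processed copies of the gene held few reads (at most 71 in a library, for *Ldha-ps2*).

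*Ldhb*, the subunit of the heart-type enzyme (ENSMUSG00000030246, chromosome 6 from 142490249 to 142507957, minus strand), passed the test in no arm. Over the 9 libraries in 20% O2 it ran from 18.97 CPM through a median of 21.7 to 27.8 CPM, and over the 9 in 1% O2 from 19.2 through 22.1 to 27.0 CPM. The group means lay between 21.3 and 24.4 CPM, and every group overlapped its neighbour in the order of means. The log2 fold changes were 0.02 (SE 0.14), -0.03 (SE 0.14) and 0.02 (SE 0.16) in the Ctrl, cKO and gesicle arms.

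*Slc16a3*, the lactate exporter (ENSMUSG00000025161, chromosome 11 from 120948480 to 120960868, plus strand), had the largest O2 difference of the 7 genes. It was close to silent in 20% O2, at 1.93, 1.71 and 1.73 CPM in the Ctrl libraries (57 to 72 counts), and stood at 180.3, 152 and 134 CPM in 1% O2 (5089 to 6530 counts). The cKO libraries had 2.58, 1.38 and 2.92 CPM in 20% O2 and 97.9, 67.7 and 96.1 CPM in 1% O2. The gesicle libraries had 1.39, 1.11 and 1.30 CPM in 20% O2 and 97.7, 98.4 and 65.4 CPM in 1% O2. The highest library in 20% O2 (2.92 CPM) was far under the lowest in 1% O2 (65.4 CPM), and within 1% O2 the 3 Ctrl libraries were above all 6 others. The rise on the log2 scale was 6.44 (SE 0.29, an 86.9-fold rise, edgeR adjusted p = 4.4e-07) in Ctrl TFs, 5.26 (SE 0.27, 38.2-fold, edgeR adjusted p = 2.6e-06) in cKO TFs and 6.10 (SE 0.28, 68.6-fold, edgeR adjusted p = 6.0e-09) in gesicle-treated TFs.

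*Slc16a1*, the two-way lactate carrier (ENSMUSG00000032902, chromosome 3 from 104638668 to 104658462, plus strand), had fold changes below 0 and was called in no arm. The Ctrl libraries had 45.2, 57.8 and 33.5 CPM in 20% O2 and 36.2, 39.7 and 31.6 CPM in 1% O2. The cKO libraries had 64.1, 41.3 and 66.2 CPM in 20% O2 and 37.3, 33.5 and 39.0 CPM in 1% O2, and the gesicle libraries 47.8, 58.2 and 41.4 CPM and then 37.2, 40.5 and 28.8 CPM. The O2 levels overlapped in Ctrl TFs and did not in the cKO and gesicle arms, where 20.5% and 24% of all genes did not. The log2 fold changes were -0.34 (SE 0.21, edgeR adjusted p = 0.477), -0.63 (SE 0.21, edgeR adjusted p = 0.136) and -0.47 (SE 0.21, edgeR adjusted p = 0.264). Averaged over the arms the difference was -0.49 (SE 0.12, edgeR adjusted p = 0.00925), a fold of 0.714 that stayed short of the fold minimum.

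*Bsg*, the chaperone of both exporters (ENSMUSG00000023175, chromosome 10 from 79704491 to 79711969, plus strand), had 732, 821 and 774 CPM in the Ctrl libraries in 20% O2 and 1161, 1174 and 1214 CPM in 1% O2. The cKO libraries had 756, 1053 and 790.4 CPM in 20% O2 and 1365, 1251 and 1238 CPM in 1% O2. The gesicle libraries had 849, 785 and 767 CPM in 20% O2 and 1001, 1173 and 1303 CPM in 1% O2. Within each arm the 1% O2 libraries were all above the 20% O2 libraries, by a small margin next to *Slc2a1* or *Ldha*. Of all genes, 29.7%, 20.5% and 24% did not overlap in the Ctrl, cKO and gesicle arms. The log2 fold changes were 0.62 (SE 0.14, edgeR adjusted p = 0.0393), 0.57 (SE 0.14, edgeR adjusted p = 0.0496) and 0.53 (SE 0.13, edgeR adjusted p = 0.0339), which put the folds at 1.53, 1.49 and 1.45, on either side of the minimum. The Ctrl call did not hold with the replicate number as a block (0.62, edgeR adjusted p = 0.0560) or with any one of the 6 Ctrl libraries left out (edgeR adjusted p from 0.0807 to 0.187). The cKO library of replicate 2 in 20% O2 was the high one, and without it the cKO difference was 0.76 (edgeR adjusted p = 0.00278).

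**Figure D2:**
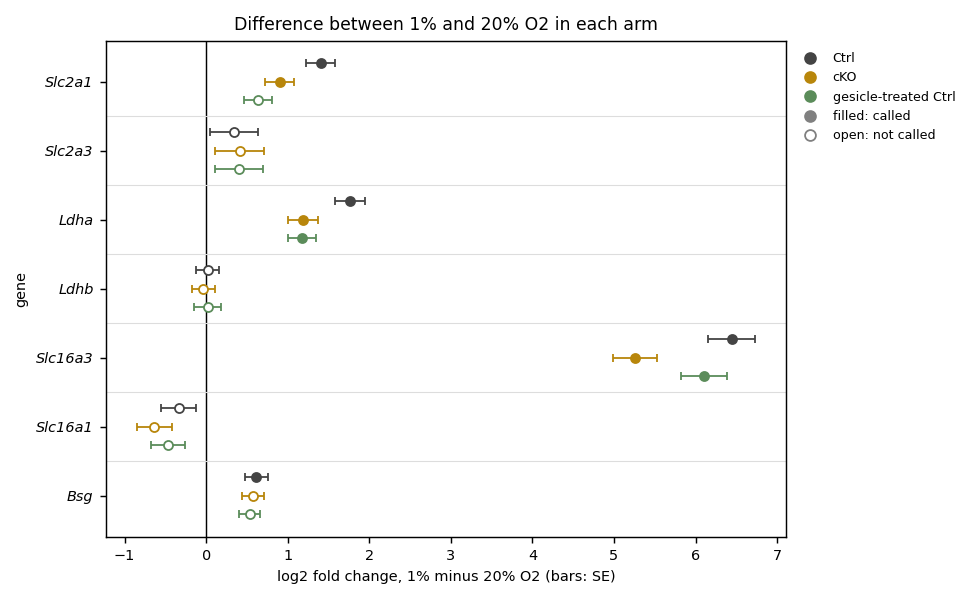
Log2 fold change between 1% and 20% O2 (horizontal axis, bars are SE) for each gene in Ctrl, cKO and gesicle-treated Ctrl TFs, filled where called. *Slc16a3* lies between 5.26 and 6.44 in the 3 arms, *Ldha* between 1.18 and 1.76, *Slc2a1* between 0.64 and 1.40, and *Ldhb* between -0.03 and 0.02.

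The cKO library of replicate 2 in 20% O2 stood apart for several of these genes, being the highest of its group for *Bsg*, *Ldha*, *Ldhb* and *Slc2a1* and the lowest for *Slc2a3*, *Slc16a1* and *Slc16a3*. Without it, 5 of the 7 genes were called for O2 in cKO TFs: *Slc16a3*, *Ldha*, *Slc2a1*, *Bsg* and *Slc16a1*, the last at -0.81 (edgeR adjusted p = 0.0232). Calls over the whole table also rose without it, to 8.42% of all genes from 2.1%. Cell type markers also moved with O2. With the arms averaged, 10.5% of all genes were called. Of the 10 tendon fibroblast markers, *Fmod* was then called higher (0.70, edgeR adjusted p = 0.00594) and *Dcn* lower (-0.61, edgeR adjusted p = 0.0141). Of 4 endothelial markers, 2 were tested with the arms averaged and both were called lower, *Tek* at -0.94 (edgeR adjusted p = 0.00692) and *Kdr* (edgeR adjusted p = 0.00189). *Kdr* was also called lower in gesicle-treated TFs (edgeR adjusted p = 0.0339), and not with any one of their 6 libraries left out. The 4 endothelial markers summed to 27.9 to 45.6 CPM in the Ctrl libraries in 20% O2 and 11.46 to 27.6 CPM in 1% O2, to 37.2 to 76.6 and 16.8 to 40.0 CPM in cKO TFs, and to 25.8 to 61.3 and 17.4 to 25.2 CPM in gesicle-treated TFs. Almost all of it was *Tek* (means of 19.1 to 53.7 CPM), while *Pecam1*, *Cdh5* and *Kdr*, which define endothelium, had group means of at most 0.459 CPM. *Kdr* had a mean of 0.393 CPM in Ctrl TFs in 20% O2 and 0.0283 CPM in 1% O2, 0.0595 CPM and 0 in cKO TFs, and 0.459 and 0.0201 CPM in gesicle-treated TFs. It had at most 25 counts in a library and was over the floor in 5 of the 18 libraries. Leukocyte markers summed to 10.6 to 25.4 CPM over all libraries, mostly *Lyz2*, with *Adgre1* at 0 in 5 of the 6 groups. Chondrocyte markers summed to 24.2 to 51.2 CPM, skeletal muscle markers to 9.47 to 42.2 CPM with *Ckm* at 0 in every library, and Schwann markers to 5.34 to 16.3 CPM. The part of these transcripts in the O2 differences was not tested.

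The balance between paralogs was read within each library. There the ratio of the 2 genes does not depend on scaling, and per kilobase of exon *Slc16a1* outweighed *Slc16a3* in all 9 libraries in 20% O2, where the *Slc16a3* to *Slc16a1* ratio was 0.0338, 0.0327 and 0.0218 (geometric means of Ctrl, cKO and gesicle-treated TFs). In 1% O2 it was 3.60, 1.96 and 2.03, so that *Slc16a3* was the more abundant of the pair in all 9 libraries. *Ldha* already exceeded *Ldhb* in 20% O2, at a ratio per kilobase of 14.3, 14.4 and 15.1, and reached 47.6, 33.4 and 33.8 in 1% O2. *Slc2a1* exceeded *Slc2a3* everywhere, at 21.0 in Ctrl TFs in 20% O2 and 42.4 in 1% O2.

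The log2 *Slc16a3* to *Slc16a1* ratio was higher in 1% O2 by 6.73 in Ctrl, 5.91 in cKO and 6.54 in gesicle-treated TFs, and the log2 *Ldha* to *Ldhb* ratio by 1.73, 1.22 and 1.17. For the *Slc2a1* to *Slc2a3* pair the difference was 1.02, 0.39 and 0.25. The O2 levels did not overlap for 7 of these 9 differences, each with a two-sided exact permutation p = 0.1, the smallest that 3 against 3 libraries allow (0.129 after Benjamini-Hochberg adjustment over 9). The *Slc2a1* to *Slc2a3* ratio overlapped in cKO and gesicle-treated TFs (exact permutation p = 0.4 for both). The *Slc2a1* to *Slc2a3* ratio per kilobase of the cKO library of replicate 2 in 20% O2 was 60.4, above all other libraries.

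**Figure D3:**
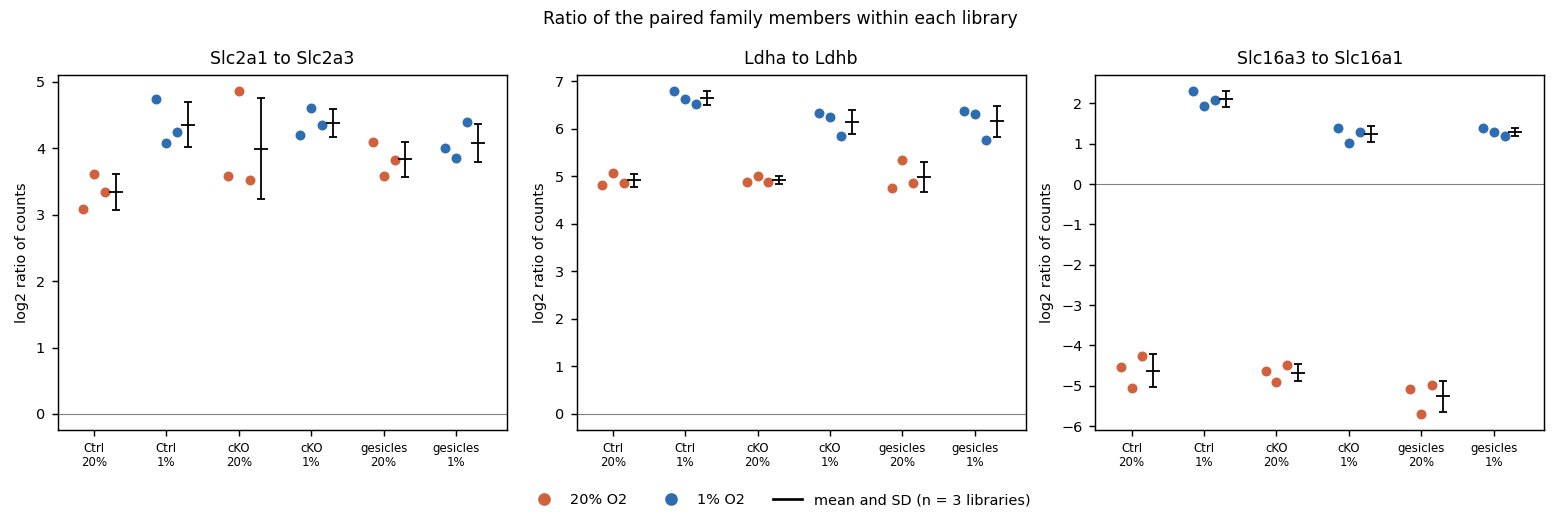
Log2 ratio of counts of each gene pair within each library, with 0 marking equal counts. Points are libraries, orange for 20% and blue for 1% O2, with the mean and SD of 3. The *Slc16a3* to *Slc16a1* ratio changes sign between the O2 levels in every arm, and the *Ldha* to *Ldhb* ratio is higher in 1% O2 in every arm.

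Across the 7 genes, levels per kilobase put *Bsg* (428 ± 24.7 CPM per kilobase, SD, n = 3) and *Ldha* (195 ± 14.6) first in Ctrl TFs in 20% O2, followed by *Slc2a1* (19.5 ± 1.93), *Ldhb* (13.6 ± 0.826) and *Slc16a1* (10.3 ± 2.75), with *Slc2a3* (0.935 ± 0.184) and *Slc16a3* (0.337 ± 0.0226) last. In 1% O2 *Ldha* (656 ± 111) stood level with *Bsg* (652 ± 15.3), and *Slc16a3* moved from the last place to the fourth, at 29.2 ± 4.37 CPM per kilobase, behind *Slc2a1* (51.3 ± 15.03).

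cKO TFs were compared with Ctrl TFs at each O2 level. In 20% O2 none of the 7 genes was called by edgeR or DESeq2 and 0 had an unadjusted p under 0.05, where edgeR called 0.347% of all genes, DESeq2 called 2.79% and 14.3% had such a p. The largest difference was that of *Slc2a3*, at -0.58 (SE 0.29, edgeR adjusted p = 0.379), and the 2 groups did not overlap for it, the 1 such gene of the 7, where 21% of all genes did not overlap. *Slc2a1* was at -0.01 (SE 0.17), *Ldha* at 0.20 (SE 0.18) and *Slc16a3* at 0.35 (SE 0.26). In 1% O2 edgeR again called 0 of the 7 genes, where 0.0379% of all genes were called, while 2 had an unadjusted p under 0.05 (16.8% of all genes had) and DESeq2 called 1 (1.91% of all genes). The gene called by DESeq2 was *Slc16a3*, at 87.2 ± 16.9 CPM in cKO against 155 ± 23.3 CPM in Ctrl TFs (SD, n = 3), a log2 difference of -0.84 (SE 0.22, edgeR adjusted p = 0.202; -0.82 with DESeq2, adjusted p = 0.0368). *Slc2a1* was at -0.52 (SE 0.17, edgeR adjusted p = 0.222) and *Ldha* at -0.37 (SE 0.18, edgeR adjusted p = 0.320). The groups in 1% O2 did not overlap for 4 of the 7 genes (*Slc2a1*, *Slc2a3* and *Slc16a3*, lower in cKO, and *Bsg*, higher), and 27% of all genes did not overlap either. Other markers moved with the genotype. The tendon fibroblast markers *Dcn* (212 CPM in Ctrl and 828 CPM in cKO TFs) and *Lum* (1.15 and 12.5 CPM) were called higher in cKO TFs in 20% O2, *Dcn* also in 1% O2, and the skeletal muscle marker *Acta1* was called lower in 20% O2 (log2 difference -1.28, edgeR adjusted p = 0.0449). Each of these calls ended with most of the single libraries left out in turn. No other of the 10 tendon fibroblast markers was called, and *Col1a1* (-1.15 in 20% O2 and -1.09 in 1% O2) and *Col1a2* (-0.35 and -0.61) were lower in cKO TFs. The median log2 difference of the 10 was 0.18 and 0.41. The part of all these markers in the genotype differences was not tested.

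The difference between the O2 response of cKO and that of Ctrl TFs was tested as an interaction. No gene of the table passed (0% called by edgeR, 2 genes by DESeq2), so 0 of the 7 genes were called by either tool, and 2 had an unadjusted p under 0.05, as 2.32% of all genes had. These were *Slc16a3*, whose rise was smaller by 1.19 on the log2 scale in cKO TFs (-1.19, SE 0.34, edgeR adjusted p = 1.00), and *Ldha* (-0.57, SE 0.26, edgeR adjusted p = 1.00). *Slc2a1* was at -0.50 (SE 0.24; -0.24 without the Ctrl library of replicate 1 in 1% O2), and *Slc16a1*, *Bsg*, *Ldhb* and *Slc2a3* lay between -0.30 and 0.07.

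Cre gesicles were compared with untreated Ctrl TFs, the same Ctrl libraries that the cKO comparison uses. In 20% O2 edgeR and DESeq2 called 0 of the 7 genes, where edgeR called 0.0247% of all genes and DESeq2 46 of 16174. Of the 7 genes 0 had an unadjusted p under 0.05, where 3.67% of all genes had. *Slc16a3* was the one gene whose groups did not overlap there, with 1.27 ± 0.144 CPM against 1.79 ± 0.120 CPM (log2 difference -0.50, SE 0.26), where 12.5% of all genes did not overlap. In 1% O2 both tools called 0 of the 7 genes and 0% of all genes, and 3 of the 7 had an unadjusted p under 0.05, as 2% of all genes had. These were *Slc16a3* (-0.83, SE 0.22), *Slc2a1* (-0.51, SE 0.17) and *Ldha* (-0.49, SE 0.17), all at an edgeR adjusted p of 1.00. For *Slc16a3* and *Ldha* the gesicle and Ctrl libraries in 1% O2 did not overlap, where 6.32% of all genes did not.

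Side by side in 1% O2, *Slc16a3* was at -0.84 in cKO and -0.83 in gesicle-treated TFs, *Slc2a1* at -0.52 and -0.51, and *Ldha* at -0.37 and -0.49. Both columns are differences from the same 3 Ctrl libraries, of which replicate 1 had the highest *Slc2a1*, *Ldha* and *Slc16a3* of the series. Without that library *Slc2a1* was at -0.25 and -0.22, and *Ldha* at -0.22 and -0.32. The interaction of gesicles and O2 was -0.76 (SE 0.24) for *Slc2a1*, -0.58 (SE 0.24) for *Ldha* and -0.33 (SE 0.34) for *Slc16a3*, with 0 of the 7 genes and 0% of all genes called by edgeR, 0 of the 7 by DESeq2, and 2 of the 7 at an unadjusted p under 0.05, as 1.5% of all genes were. Without the Ctrl library of replicate 1 in 1% O2 it was -0.46 for *Slc2a1* and -0.18 for *Slc16a3*, and without the gesicle library of replicate 3 in 1% O2 it was -0.15 for *Slc16a3*.

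**Figure D4:**
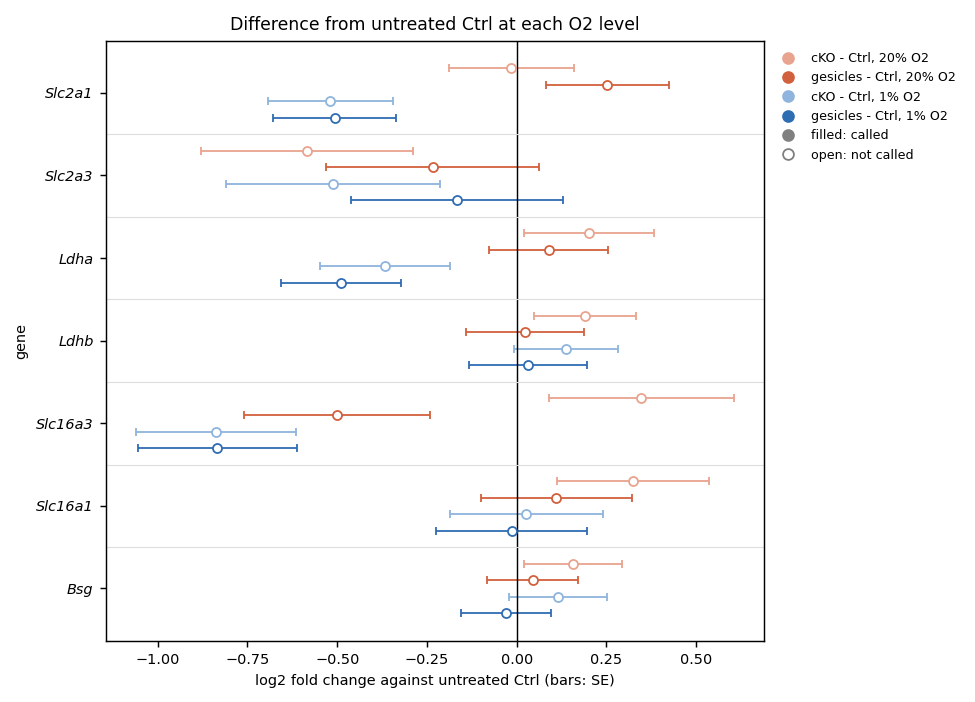
Log2 difference from untreated Ctrl TFs (horizontal axis, bars are SE) of cKO and gesicle-treated TFs in 20% O2 (light and dark orange) and 1% O2 (light and dark blue). All points are open since edgeR called no gene. In 1% O2 *Slc16a3* lies at -0.84 and -0.83, and *Slc2a1* at -0.52 and -0.51.

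Part of the enzymes that link glucose entry to pyruvate rose in 1% O2. Of 24 glycolytic enzymes listed, 19 were tested. In 1% O2, 11 rose and 0 fell in Ctrl TFs, where 1.88% of all genes were called. In cKO TFs 6 rose and 0 fell, against 2.1%, and in gesicle-treated TFs 7 rose and 0 fell, against 2.41%. The median log2 fold change of the 19 enzymes was 1.06, 0.58 and 0.58. The 4 called with the largest change in Ctrl TFs were *Aldoc* and *Aldoa* (aldolases), *Pfkl* (a phosphofructokinase) and *Tpi1* (triosephosphate isomerase). *Aldoc*, at 1.11 CPM in Ctrl TFs in 20% O2 and 8.06 CPM in 1% O2, rose by 2.86 (SE 0.31), 2.38 and 1.91 on the log2 scale in the Ctrl, cKO and gesicle arms. *Pfkl* rose from 50.4 to 296 CPM in Ctrl TFs, by 2.56 (SE 0.13), and by 1.98 and 2.001 in the other arms. *Tpi1* rose by 1.58, 1.06 and 1.07, and *Aldoa* by 1.52, 1.06 and 1.12.

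Not every enzyme of the route followed. *Hk1*, the widespread hexokinase, was at 0.17 (SE 0.16), -0.16 and -0.13 in the 3 arms, and *Hk2* at -0.17 (SE 0.25), -0.66 and -0.61, none called. *Pfkm* and *Pfkp*, the other phosphofructokinases, lay between 0.00 and 0.47 and were not called. *Eno1b* is a near-identical copy of *Eno1*, so that the split of reads between them is uncertain. None of the 19 enzymes was called for cKO or gesicles against Ctrl or for either interaction by edgeR. In cKO against Ctrl TFs in 1% O2, DESeq2 called 2, and 1.91% of all genes.

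**Figure D5:**
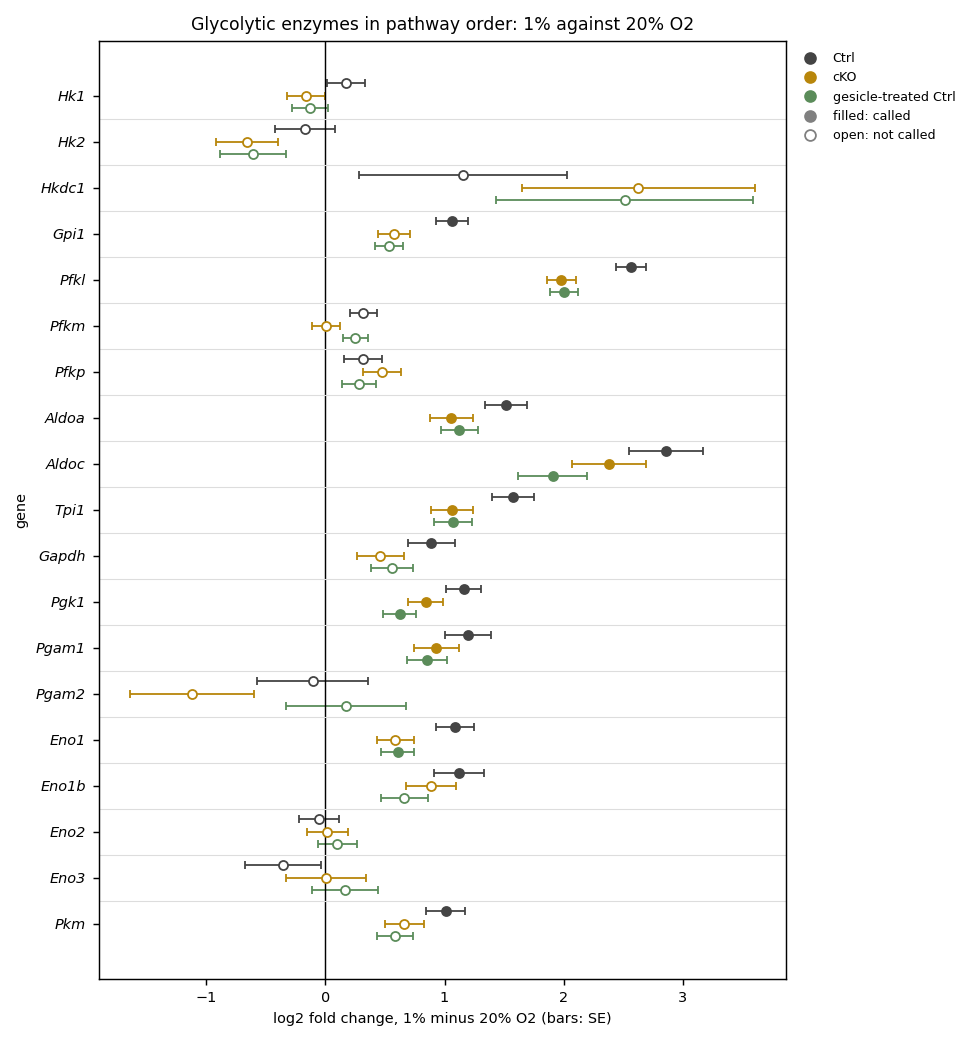
Log2 fold change between 1% and 20% O2 (horizontal axis, bars are SE) of the 19 glycolytic enzymes tested, from hexokinases at the top to pyruvate kinase at the bottom, in Ctrl, cKO and gesicle-treated TFs, filled where called. *Pfkl*, *Aldoa*, *Aldoc* and *Tpi1* are called in all 3 arms, while *Hk1*, *Hk2*, *Pfkm* and *Pfkp* are called in none.

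Of 10 further genes of the SLC2 sugar carriers, 8 were tested, and edgeR called none in Ctrl or cKO TFs. *Slc2a9*, a urate carrier, was at -0.89 (SE 0.28), -1.06 (SE 0.28) and -1.01 (SE 0.24) in the Ctrl, cKO and gesicle arms, and passed in gesicle-treated TFs (edgeR adjusted p = 0.0350). That call ended with any one of the 6 gesicle libraries left out (edgeR adjusted p from 0.0554 to 0.145), and with no filter, their own libraries alone or a block nested in arm (0.0539 to 0.0820). DESeq2 called *Slc2a9* in Ctrl (adjusted p = 0.0319) and cKO TFs (adjusted p = 0.0103), where it called 4.39% and 5.63% of all genes, and edgeR called it in cKO TFs in the fit of all 18 libraries (adjusted p = 0.0258). With the arms averaged, where 10.5% of all genes were called, *Slc2a9* (-0.99) and *Slc2a6* (-0.69) fell. *Slc2a4*, the insulin-dependent carrier, had at most 4 counts in any library. Of 11 further genes of lactate and pyruvate handling, 7 were tested. None was called in any single arm when low rows were filtered and no block was used. *Emb* (embigin, the other chaperone of the lactate carriers) was at 1.17 (SE 0.40), 0.95 (SE 0.40) and 0.81 (SE 0.39) and was called with the arms averaged, at 0.97 (edgeR adjusted p = 0.00620). In Ctrl TFs it was also called with the replicate block nested in arm (1.26, edgeR adjusted p = 0.0222) and with no filter (edgeR adjusted p = 0.0480). *Mpc1* and *Mpc2*, the mitochondrial pyruvate carrier, lay between -0.21 and 0.01. Of 8 known regulators of glucose carriers, 7 were tested and none was called in a single arm, and with the arms averaged *Epas1* (HIF-2α) fell, at -0.80 (edgeR adjusted p = 0.0181). *Txnip*, which limits glucose uptake, was at 0.39, 0.59 and 0.59.

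Of 10 known hypoxia response genes outside this route, 7 rose in Ctrl, 7 in cKO and 8 in gesicle-treated TFs, and none was called lower. Of all genes, 1.88%, 2.1% and 2.41% were called in these arms. The count of 8 was 5 from the gesicle libraries alone, and 5 without their replicate 3 in 1% O2 or replicate 2 in 20% O2. *Ndufa4l2*, a mitochondrial protein induced by HIF, had log2 fold changes of 5.42, 5.54 and 5.18 in the 3 arms, *Ankrd37* 2.85, 3.17 and 3.19, *Pdk1* (pyruvate dehydrogenase kinase) 2.64, 2.001 and 2.13, and *Bnip3* 2.28, 2.29 and 1.95. None of the 10 was called for cKO or gesicles against Ctrl by edgeR. DESeq2 called 2 for cKO in 20% O2 (*Adm* at 0.70 and *Vegfa* at -1.12) and 2 in 1% O2 (*Adm* at 0.74 and *Pdk1* at -0.62), and edgeR called *Vegfa* in 20% O2 with all 18 libraries, with no filter and without replicate 1 of cKO. Of all genes, DESeq2 called 2.79% for cKO in 20% O2 and 1.91% in 1% O2.

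Genes whose pattern was most like that of each member were taken by the smallest root mean square difference in log2 CPM, after centring each gene on its own mean, over 18 libraries and 16174 genes. For *Ldha* they were *Tpi1* (0.123), *Aldoa* (0.135) and *Cnih2* (0.217), against a spread of *Ldha* about its own mean of 0.723. For *Slc2a1* they were *Pkm* (pyruvate kinase, 0.158), *Eno1* (enolase, 0.177) and *Layn* (0.178), against a spread of 0.543. For *Slc16a3* they were *Ndufa4l2* (0.681), *Mgarp* (0.897) and *Ces1f* (1.27), against a spread of 2.98. *Ndufa4l2* had a mean of 78.7 CPM in Ctrl and 115 CPM in cKO TFs in 1% O2, an order opposite to that of *Slc16a3*. For *Bsg* they were *Cbr1* (0.0963), *Glt8d1* (0.0975) and *Tmed3* (0.0991). For *Slc2a3* they were *Ninl* (0.169), *Steap2* (0.206) and *Cnst* (0.212), for *Slc16a1* *Spin4* (0.165), *Rab23* (0.168) and *Slc44a1* (0.181), and for *Ldhb* *Galt* (0.0789), *Spryd4* (0.0856) and *Anapc16* (0.0871). Among the 7 genes themselves, the closest pair was *Slc2a1* and *Ldha* (0.270) and the farthest *Slc16a1* and *Slc16a3* (3.21).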

How the data were processed

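Poly-A RNA of 18 mouse TF libraries (6 groups of 3) was analysed from 1 table of gene counts. The authors trimmed the reads with Cutadapt, mapped them to GRCm38 with STAR, estimated counts per gene with RSEM 1.3.3 and deposited these estimated counts as whole numbers, without normalization. The table has 55491 rows, 4 of them transgenes, and every row names a gene. RSEM shares reads among near-identical copies by estimate. Positions and exon lengths came from the GENCODE annotation of GRCm38, promoters from RefSeq.

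Samples were grouped by the labels. Library totals ran from 6857558 to 51806453 counts, and the floor of 3 counts covers counting error only. No libraries were copies of each other (smallest chi-square per degree of freedom 11.2). Low rows were removed with filterByExpr. R 4.3.3 and edgeR 4.0.16 gave the tests (TMM scaling, quasi-likelihood F test with a coefficient for each group). The Ctrl and cKO comparisons used a fit of their 12 libraries with 15850 genes, and the gesicle comparisons and the average over arms a fit of all 18 with 16174 genes. A call needed a fold change of 1.5 or more and an adjusted p under 0.05. Levels are CPM with TMM factors of the 18 libraries. Paralog ratios used counts with 0.5 added and an exact permutation test. The tests were checked on simulated counts.

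The study's methods name DESeq2 with a paired design and no pairing factor. DESeq2 1.42.0, no fold minimum, other scaling, other filters, other sets of libraries, a replicate block and each library left out were the alternatives. Libraries with the same replicate number deviated together (all 3 residual correlations over 0.1) for O2 in Ctrl TFs and for gesicles against Ctrl at both O2 levels. The other comparisons did not meet this cutoff. For O2 in cKO TFs the correlations were 0.0956, 0.0921 and 0.368, short of it by little. The genes and lists were chosen with earlier results of these data known. The text names the 7 genes, *Hif1a*, 3 nearest genes per member and up to 4 called genes per list with the largest change in Ctrl TFs. Other list genes were named after their values were seen. 1 listed enzyme is not reported here.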

Additional observations from a re-analysis of the deposited data

How the results depend on the processing

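Of the 7 genes, *Slc16a3* and *Ldha* kept their O2 calls in each arm under every alternative, with log2 fold changes from 4.998 to 6.53 and from 1.05 to 1.84, and *Slc2a1* kept its Ctrl call (1.13 to 1.53, adjusted p at most 0.0134). The number called for O2 in cKO TFs was 3 and ran from 2 to 5 with single libraries left out, 5 without replicate 2 in 20% O2. With the arms averaged it was 3, and 5 with no fold minimum. For cKO against Ctrl in 1% O2 it was 0, and 1 with DESeq2. *Slc2a1* was called for O2 in gesicle-treated TFs by DESeq2, with no filter, with a CPM filter and with the replicate block (adjusted p from 0.0172 to 0.0498). With the replicate block the number called for O2 was 3 in every arm. Over all genes 280 and 222 of 15850 were then called in Ctrl and cKO TFs, and 449 of 16174 in gesicle-treated TFs. With the block nested in arm 3, 3 and 2 of the 7 genes were called, where 368, 444 and 472 of all genes were. The block ended the *Bsg* call in Ctrl TFs (0.62, adjusted p = 0.0560). Beside these 2 genes it changed no call of a member.

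Differences near 0 changed sign. *Ldhb* for O2 in Ctrl was -0.0055 with DESeq2 and -0.0056 with RLE factors, and averaged over arms 0.0021 with no filter and 0.0010 with a CPM filter. *Slc2a1* for cKO in 20% O2 was 0.0078 with the CPM filter, and *Slc16a1* for gesicles in 1% O2 was 0.00090 with no filter. With single libraries left out, *Ldhb* for O2 ran from -0.042 to 0.092 in Ctrl, -0.12 to 0.086 in cKO, -0.18 to 0.18 in gesicle-treated TFs and -0.077 to 0.051 averaged. For cKO in 20% O2 *Slc2a1* ran from -0.098 to 0.043 and *Bsg* from -0.023 to 0.25, and in 1% O2 *Slc16a1* from -0.048 to 0.10. In the cKO interaction *Slc2a3* ran from -0.21 to 0.30, *Bsg* from -0.14 to 0.15 and *Ldhb* from -0.13 to 0.077. For gesicles in 20% O2 *Slc16a1* ran from -0.085 to 0.31, *Bsg* from -0.0029 to 0.076, *Ldha* from -0.0037 to 0.21 and *Ldhb* from -0.14 to 0.11. In 1% O2 *Slc2a3* ran from -0.34 to 0.043, *Slc16a1* from -0.099 to 0.12, *Bsg* from -0.12 to 0.091 and *Ldhb* from -0.15 to 0.14. In the gesicle interaction *Slc2a3* ran from -0.093 to 0.29, *Slc16a1* from -0.31 to 0.083, *Bsg* from -0.15 to 0.059 and *Ldhb* from -0.15 to 0.17. The causes were not tested.

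Counts over all genes moved more. EdgeR called 298, 333 and 390 genes for O2 in Ctrl, cKO and gesicle-treated TFs, DESeq2 696, 892 and 732, and with single libraries left out the ranges were 116 to 261, 98 to 1373 and 148 to 346. With no filter 511 were called in cKO TFs, and 120 in gesicle-treated TFs from their own libraries alone. Averaged, 1697 became 3980 with no fold minimum. For cKO in 20% O2 55 became 443 with DESeq2, 281 with no filter, 87 in the fit of 18 libraries and 1 to 154 with libraries left out, and in 1% O2 6 became 302, 111, 14 and 0 to 6, and 2 with the block. For gesicles in 20% O2 4 became 46 with DESeq2, 23 with no filter, 1 from the groups compared alone and 0 to 2 with libraries left out. The cKO interaction went from 0 to 2 with DESeq2 and 1 with a library left out, and the gesicle interaction from 0 to 1 from the groups compared alone. Glycolytic enzymes called for O2 in cKO TFs went from 6 to between 2 and 13 with libraries left out (13 without replicate 2 in 20% O2), and in gesicle-treated TFs from 7 to between 4 and 7. Depth limits the cKO library of replicate 1 in 1% O2 most, where *Slc2a3* had 50 counts.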
